A study of Mus musculus with 11 samples.

Results

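Hmox1, the gene of heme oxygenase 1, was examined with 9 other genes of the NRF2 antioxidant pathway, Nqo1, Gclc, Gclm, Txnrd1, Srxn1, Slc7a11, Nfe2l2, Keap1 and Prdx1. The 10 genes were taken by symbol from the 36529 genes listed in the count files, and all 10 passed the filter on low counts in every comparison. They were chosen by an earlier readout of these same data, in which the Hmox1 counts had differed from the controls in opposite directions with the nApoE4 and nApoE3 fragments. For that reason the Hmox1 values with the fragments are given as a description, with no test.

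The samples were BV2 cells, an immortalised mouse microglial line, labelled as C57BL/6. Cells received 25 µg/ml of an amino-terminal apolipoprotein E fragment for 5 h. The fragment held residues 1 to 151 of human ApoE4 (nApoE4, 3 samples) or of ApoE3 (nApoE3, 2 samples), which differ by a single residue, and both carried a His tag. Each fragment was measured in an experiment of its own with 3 untreated control samples, so fragment and experiment cannot be told apart. The labels give a PBS vehicle for the controls, whereas the methods of the study give conditioned media. The study speaks of independent measurements or trials without saying whether separate cultures were meant, so the p-values measure the spread between these samples, which may be technical. In bulk samples, a change in the number of cells that express a gene and a change in RNA per cell cannot be told apart.

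NRF2, encoded by Nfe2l2, is a transcription factor that KEAP1 marks for degradation in unstressed cells. When reactive cysteines of KEAP1 are modified by oxidants or electrophiles, NRF2 accumulates, pairs with a small MAF protein and binds antioxidant response elements near genes for glutathione synthesis, the thioredoxin system and quinone detoxification. Hmox1 is also a target of NRF2, is repressed by BACH1 until heme releases it, and its enzyme degrades heme to biliverdin, carbon monoxide and iron.

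Total counts ran from 39732710 to 44162511 per sample in the nApoE4 experiment and from 55809688 to 69768666 in the nApoE3 experiment. Of 12 microglia or macrophage markers, 9 to 10 had a mean of at least 10 counts in each group, and their summed level ran from 2390 to 3650 CPM (counts scaled to library size). P2ry12, a marker of resting microglia, was listed at 0 in all 11 samples. The counting settings are not given, so a listed 0 cannot be read as lack of expression. The marker sums were at most 25.4 CPM for oligodendrocytes, with Mog listed at 0, and at most 6.27 for neurons, 1.72 for astrocytes, 1.86 for endothelium and 0.39 for fibroblasts. The second control of the nApoE4 experiment stood apart from the other controls, with a chi-square per degree of freedom of 24.5 and 45.5 against them and 7.52 between these. Values without it are given beside the calls it decided.

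The promoters of Srxn1, Gclm, Prdx1 and Txnrd1 are shown with the letters that NRF2 and AP-1 sites are made of. These genes rose with both fragments and held a match in the window. Slc7a11, Nqo1 and Nfe2l2 also rose with both and are not printed, although Nfe2l2 held a match too. The core of the antioxidant response element was searched as TGACNNNGC and the AP-1 site as TGAGTCA, on both strands, and the 2 patterns can overlap. Promoter windows from RefSeq (GRCm38.p6), reaching from 250 bases before a start site to 50 after it, were matched for 8 of the 10 genes, with 10 windows in all. Hmox1 and Gclc had no entry. The 250 bases before the start are printed from 5′ to 3′ on the strand of the gene, all on the plus strand of the genome, with matches to either pattern in capitals.
Srxn1, chr2:152105274-152105523: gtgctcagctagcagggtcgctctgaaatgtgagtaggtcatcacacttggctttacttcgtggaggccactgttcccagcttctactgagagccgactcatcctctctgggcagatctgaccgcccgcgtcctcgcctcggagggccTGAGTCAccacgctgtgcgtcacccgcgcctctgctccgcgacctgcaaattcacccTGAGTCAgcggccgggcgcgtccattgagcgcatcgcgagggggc
Gclm, chr3:122245307-122245556: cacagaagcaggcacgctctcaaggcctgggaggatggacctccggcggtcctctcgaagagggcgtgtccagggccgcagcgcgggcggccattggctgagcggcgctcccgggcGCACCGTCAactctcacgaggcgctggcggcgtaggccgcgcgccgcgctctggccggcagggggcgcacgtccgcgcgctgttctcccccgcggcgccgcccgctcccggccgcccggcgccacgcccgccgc
Prdx1, chr4:116685349-116685598: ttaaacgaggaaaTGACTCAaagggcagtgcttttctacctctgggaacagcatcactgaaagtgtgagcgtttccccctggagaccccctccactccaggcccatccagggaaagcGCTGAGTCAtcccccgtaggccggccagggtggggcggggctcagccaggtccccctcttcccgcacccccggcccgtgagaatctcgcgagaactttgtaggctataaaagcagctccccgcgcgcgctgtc
Txnrd1, chr10:82858956-82859205: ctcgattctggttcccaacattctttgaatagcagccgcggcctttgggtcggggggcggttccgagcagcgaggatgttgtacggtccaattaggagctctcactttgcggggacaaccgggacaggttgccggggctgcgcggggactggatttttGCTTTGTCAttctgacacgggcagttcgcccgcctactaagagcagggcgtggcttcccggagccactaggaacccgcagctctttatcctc

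In the Prdx1 promoter the run in capitals nearest the start held both patterns, a core on the minus strand and an AP-1 site on the plus strand that overlap. In Srxn1 both capital runs were AP-1 sites, and its core match began at base 29 after the start, outside the bases shown. The Gclm and Txnrd1 cores were on the minus strand, and the Txnrd1 window shown is 1 of the 3 listed for that gene. Nfe2l2 also held a core, 240 bases before its start, and the windows of Keap1, Nqo1 and Slc7a11 held neither pattern. The core was present in 5 of the 10 windows, against 12.4% of all 32851 promoter windows of this length, and the AP-1 pattern in 2 of the 10, against 5.2%. A match describes letters in a window and was not tested as a binding site.

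Levels per exon length spanned a wide range among the 10 genes. In the controls of the nApoE4 experiment, mean RPKM (CPM per kilobase of exon) was highest for Hmox1 at 398 ± 42.9 (SD, n = 3) and Prdx1 at 197 ± 30.2. Nfe2l2 followed at 91.7 ± 4.88, and Slc7a11 (2.23 ± 0.156) and Nqo1 (0.37 ± 0.0594) were lowest. With nApoE3 Hmox1 reached 1770 ± 310 (SD, n = 2) and Prdx1 728 ± 60.7, while with nApoE4 Prdx1 stood at 334 ± 12.9 and Hmox1 at 263 ± 6.59 (SD, n = 3). Nqo1 was the lowest of the 10 in each group.

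The untreated cells of both experiments already differed in these genes. Setting Hmox1 aside, controls of the nApoE3 experiment had higher levels than controls of the nApoE4 experiment for 7 of 9 genes, beside 69.3% of all 14249 genes tested that passed the threshold in either direction (34.4% higher, 34.9% lower). The largest of these was Gclm, at 3.37-fold (log2 1.75, SE 0.05, adjusted p = 2.46e-07 by edgeR's quasi-likelihood test with Benjamini-Hochberg adjustment). Gclc was 2.22-fold higher (adjusted p = 8.88e-07), Txnrd1 2-fold (adjusted p = 9.38e-07), Slc7a11 1.94-fold (adjusted p = 4.13e-06), Prdx1 1.54-fold (adjusted p = 0.000646) and Srxn1 1.38-fold (adjusted p = 0.00018). Nfe2l2 was 1.11-fold higher (adjusted p = 0.0336), a call that was lost when any sample but the second control of the nApoE4 experiment was left out (adjusted p 0.0552 to 0.123). Keap1 (log2 -0.08, adjusted p = 0.114) and Nqo1 (log2 -0.56, adjusted p = 0.0659) did not pass, though without the second control of the nApoE4 experiment Nqo1 was lower at -0.69 (adjusted p = 0.0375). The Hmox1 level in the controls of the nApoE3 experiment was 0.68 of that in the other controls (log2 -0.55, SE 0.08), again a description, since the same control values entered its choice. The median over all genes in this contrast was -0.0096.

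With nApoE4, the transcription factor gene Nfe2l2 and the genes for cystine import, the glutathione ligase modifier, the thioredoxin system and quinone reduction rose, Gclc fell, and Keap1 did not pass the test. With nApoE3, the same genes rose, Gclc again fell and Keap1 rose. Setting Hmox1 aside, 7 of 9 genes rose and 1 fell with nApoE4, and the median of the 9 log2 values was 0.96, beside 57.2% of 14240 genes called (28.6% higher, 28.6% lower) and a median of 0.00128 over all genes. With nApoE3, 8 of 9 rose and 1 fell with a median of 1.25, beside 67.7% of 14817 genes called (33.1% higher, 34.6% lower) and a median of -0.00261. Tested as a difference between the fragments, 4 of the 9 genes had a smaller change with nApoE4 and none a larger one, beside 28.3% of 15287 genes called (14.4% higher, 13.9% lower). For the other 5 the difference did not pass the threshold.

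**Figure D1:**
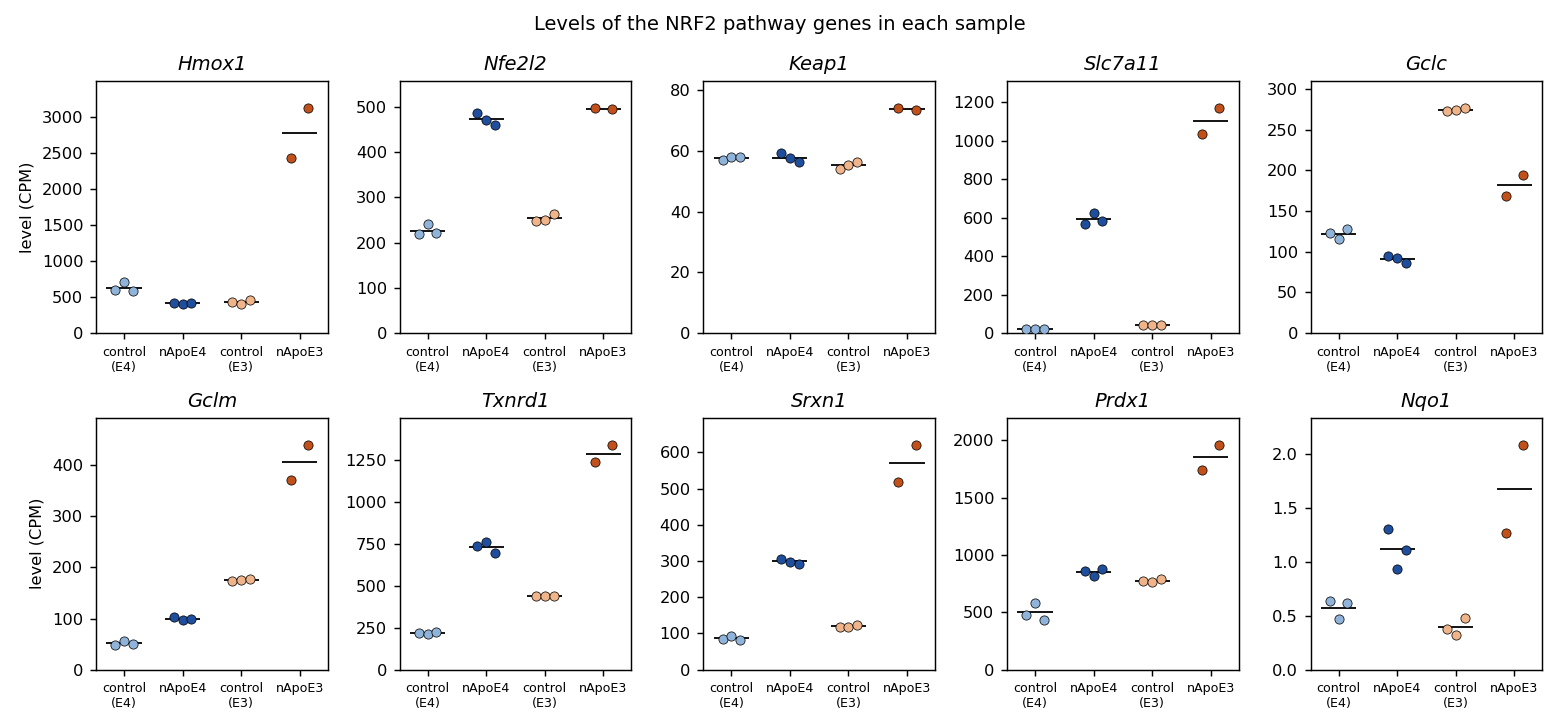
Level of each of the 10 genes in each sample, in CPM on a linear axis from 0, for the controls of the nApoE4 experiment, nApoE4, the controls of the nApoE3 experiment and nApoE3. Points are samples and lines are group means. Hmox1 lay between 401 and 702 CPM in 9 samples and at 2431 and 3119 in the nApoE3 samples, while Slc7a11 was high with both fragments.

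Nfe2l2, the gene of NRF2 itself, had 219, 241 and 221 CPM in the controls and 487, 472 and 460 with nApoE4. In the nApoE3 experiment it had 249, 251 and 263 CPM in the controls and 498 and 496 with nApoE3. Every treated sample lay above every control. The change was 2.09-fold with nApoE4 (log2 1.07, SE 0.06, adjusted p = 5.76e-07 by edgeR with Benjamini-Hochberg adjustment) and 1.95-fold with nApoE3 (log2 0.96, SE 0.03, adjusted p = 7.72e-12). The difference of the 2 changes (nApoE4 minus nApoE3, as for all differences here) was 0.09 on the log2 scale, with a 95% interval of -0.065 to 0.248 and an adjusted p = 0.389 by edgeR.

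Keap1, the inhibitor that holds NRF2 low, had 57.0, 58.1 and 58.1 CPM in the controls and 59.2, 57.5 and 56.5 with nApoE4. These groups overlapped, at a log2 fold change of 0.0049 (SE 0.05, adjusted p = 0.942), and its sign turned under other settings. The nApoE3 experiment gave 54.0, 55.4 and 56.3 CPM in the controls and 74.1 and 73.6 with nApoE3, a rise of 1.33-fold (log2 0.41, SE 0.03, adjusted p = 1.2e-07) with no overlap. The difference between the fragments passed the test, at -0.42 (SE 0.06, adjusted p = 0.000169 by edgeR). The strand setting of the counting is not given in the sources used here. GENCODE M21 lists genes on the other strand within or across Keap1 (Gm16754), Slc7a11 (Gm37854) and Gclm (Gm17494). How reads in these overlaps were counted is therefore not known.

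Slc7a11 encodes the subunit of the cystine and glutamate exchanger that brings in cystine for glutathione, and it had the largest fold change of the 10 genes with either fragment. Its controls held 22.9, 20.2 and 22.8 CPM and the nApoE4 samples 567, 625 and 584. In the other experiment the controls held 44.1, 42.2 and 43.1 CPM and the nApoE3 samples 1034 and 1171. The groups lay far apart in both, at 27.1-fold with nApoE4 (log2 4.76, SE 0.09, adjusted p = 4.08e-10 by edgeR) and 25.4-fold with nApoE3 (log2 4.67, SE 0.05, adjusted p = 2.04e-15). Ranked by fold change, Slc7a11 was number 100 of 14240 genes with nApoE4 and number 109 of 14817 with nApoE3. The 2 changes differed by 0.08 on the log2 scale, with a 95% interval of -0.128 to 0.282 (adjusted p = 0.598).

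Glutamate-cysteine ligase makes the first step of glutathione synthesis, with a catalytic subunit from Gclc and a modifier subunit from Gclm, and the transcripts of the subunits moved apart. Gclc had 124, 115 and 128 CPM in the controls and 95.1, 92.2 and 86.1 with nApoE4. The other experiment had 273, 274 and 277 CPM in the controls and 169 and 195 with nApoE3. Every treated sample was below its controls, with a fall of 0.42 on the log2 scale with nApoE4 (log2 -0.42, SE 0.06, adjusted p = 0.000416 by edgeR) and of 0.60 with nApoE3 (log2 -0.60, SE 0.05, adjusted p = 1.42e-07). The difference was 0.18, with a 95% interval of -0.0197 to 0.37 (adjusted p = 0.173).

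Gclm had 48.8, 55.3 and 50.3 CPM in the controls and 102, 98.1 and 99.3 with nApoE4. The other experiment had 174, 176 and 176 CPM in the controls and 371 and 440 with nApoE3. Every treated sample was above its own controls, yet the nApoE4 samples lay below all controls of the nApoE3 experiment. The rise was 1.95-fold with nApoE4 (log2 0.96, SE 0.06, adjusted p = 9.02e-07 by edgeR) and 2.3-fold with nApoE3 (log2 1.20, SE 0.05, adjusted p = 7.32e-10). The difference of -0.25 did not pass (95% interval -0.458 to -0.0482 before adjustment, adjusted p = 0.0638). It did not pass in 14 of 16 alternatives either. Without the first nApoE3 sample it was -0.37, and with DESeq2's Wald test the adjusted p was 0.0496.

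The ratio of Gclm to Gclc, each per exon length, was 0.242, 0.294 and 0.242 in the controls of the nApoE4 experiment and 0.658, 0.652 and 0.706 with nApoE4. It was 0.39, 0.393 and 0.39 in the other controls and 1.35 and 1.38 with nApoE3. By this measure Gclm stood above Gclc only in the nApoE3 samples, among the 11, and the 4 groups did not overlap in this ratio. The order depends on the scaling, which used all annotated exons of each gene (5589 bases for Gclm, 3423 for Gclc). In CPM, Gclm was also above Gclc with nApoE4, at a mean of 99.9 against 91.1.

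**Figure D2:**
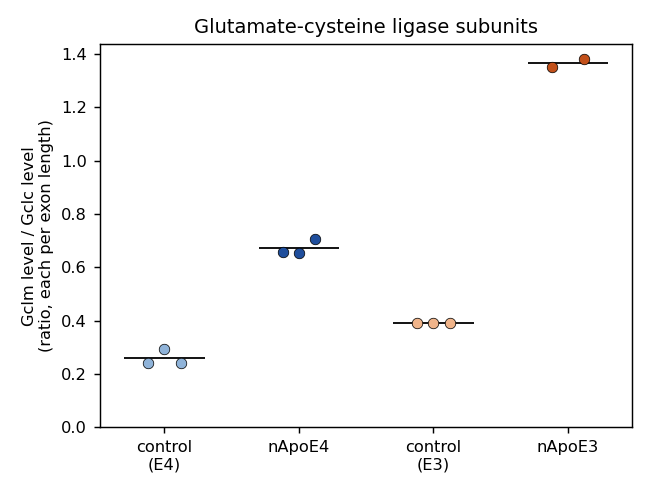
Ratio of the Gclm level to the Gclc level in each sample, both per exon length, on a linear axis from 0, with points for samples and lines for group means. The ratio lay between 0.242 and 0.393 in the 6 controls, between 0.652 and 0.706 with nApoE4 and at 1.35 and 1.38 with nApoE3.

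In the thioredoxin system, Txnrd1, the cytosolic thioredoxin reductase, had 217, 210 and 225 CPM in the controls and 734, 757 and 696 with nApoE4. It had 440, 440 and 437 CPM in the controls of the other experiment and 1234 and 1339 with nApoE3. The treated samples were above the controls by a wide margin, at 3.37-fold with nApoE4 (log2 1.75, SE 0.07, adjusted p = 2.27e-08 by edgeR) and 2.92-fold with nApoE3 (log2 1.54, SE 0.03, adjusted p = 3e-13). Txnrd1 was the one gene among the 9 with a difference near the threshold in favour of nApoE4, at 0.2 (95% interval 0.0381 to 0.354 before adjustment, adjusted p = 0.0627). It did not pass in 12 of 16 alternatives. DESeq2's Wald test gave 0.19 with an adjusted p of 0.0318. In edgeR, leaving out control replicate 3, nApoE4 replicate 3 or control replicate 2 of the nApoE4 experiment gave adjusted p of 0.0392, 0.0406 and 0.0441.

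Srxn1, sulfiredoxin, repairs overoxidised peroxiredoxins, and its promoter above held 2 AP-1 patterns. It had 83.5, 93.5 and 82.4 CPM in the controls and 307, 298 and 293 with nApoE4. The other experiment had 118, 118 and 124 CPM in the controls and 518 and 621 with nApoE3. The groups did not overlap, and the rise was 3.47-fold with nApoE4 (log2 1.80, SE 0.07, adjusted p = 2.14e-08 by edgeR) and 4.72-fold with nApoE3 (log2 2.24, SE 0.06, adjusted p = 5.41e-12). The change was smaller with nApoE4 by a difference of -0.45 (SE 0.1, adjusted p = 0.00439 by edgeR).

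Prdx1, a peroxiredoxin that reduces hydrogen peroxide with electrons from thioredoxin, had 479, 585 and 436 CPM in the controls and 860, 814 and 877 with nApoE4. It had 778, 762 and 790 CPM in the controls of the other experiment and 1743 and 1962 with nApoE3. Treated samples were above their own controls in both, at 1.71-fold with nApoE4 (log2 0.77, SE 0.1, adjusted p = 0.000146 by edgeR) and 2.38-fold with nApoE3 (log2 1.25, SE 0.04, adjusted p = 2.42e-11). The difference was -0.49 (SE 0.13, adjusted p = 0.0131 by edgeR), and it no longer passed without the second nApoE3 sample (-0.40, adjusted p = 0.0852) or with the replicate number as a block (adjusted p = 0.0867).

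Nqo1, the quinone reductase that is often used as a readout of NRF2, was close to the lower limit of these data. Its raw counts were 27, 21 and 29 in the controls and 56, 39 and 44 with nApoE4. In the other experiment they were 27, 20 and 27 in the controls and 74 and 118 with nApoE3. Treated samples were above their own controls on the CPM scale in both experiments, at 1.95-fold with nApoE4 (log2 0.96, SE 0.23, adjusted p = 0.00523 by edgeR) and 4.24-fold with nApoE3 (log2 2.08, SE 0.26, adjusted p = 1.53e-05). The difference of -1.13 (SE 0.37, adjusted p = 0.0374 by edgeR) rested on few counts and did not pass in 8 of 16 alternatives, with adjusted p between 0.0161 and 0.216, the highest without the second nApoE3 sample, where the difference was -0.73.

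Hmox1 was the one gene of the 10 with higher levels with one fragment and lower levels with the other. Its raw counts were 25398, 31477 and 26925 in the controls of the nApoE4 experiment and 17977, 16647 and 16587 with nApoE4. In the nApoE3 experiment they were 30794, 24964 and 25862 in the controls and 141469 and 176141 with nApoE3. On the CPM scale the controls of the nApoE4 experiment held 596, 702 and 577 and the nApoE4 samples 419, 401 and 418. The controls of the nApoE3 experiment held 436, 403 and 459 CPM and the nApoE3 samples 2431 and 3119. Each nApoE4 sample was thus below each of its controls, and both nApoE3 samples were above every other sample of the series.

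The Hmox1 level with nApoE4 was 0.66 of that in its controls (log2 -0.59, SE 0.08), and 6.38-fold that of the controls with nApoE3 (log2 2.67, SE 0.08). The second control of the nApoE4 experiment had the highest Hmox1 level among the controls, and without it the log2 value with nApoE4 was -0.51. With 1 nApoE3 sample left out, the log2 value with nApoE3 was 2.48 or 2.84. The nApoE3 samples stood at 5.62 and 7.21 times the mean of their controls, and 8 of the 10 genes had the higher of the 2 ratios in the second nApoE3 sample.

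In order of mean level, nApoE3 samples came first with 2780 ± 486 CPM (SD, n = 2), then the controls of the nApoE4 experiment with 625 ± 67.3 (SD, n = 3). The controls of the nApoE3 experiment had 433 ± 28 and the nApoE4 samples 412 ± 10.4 (SD, n = 3 each). These last groups overlapped, from 403 to 459 CPM and from 401 to 419. The mean level with nApoE4 was therefore within the range of untreated cells in the other experiment, and the lowest nApoE4 sample was just below that range. Among 15287 genes, the Hmox1 difference between the fragments of -3.28 was number 37 from the lowest, a description, since these values entered its choice.

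**Figure D3:**
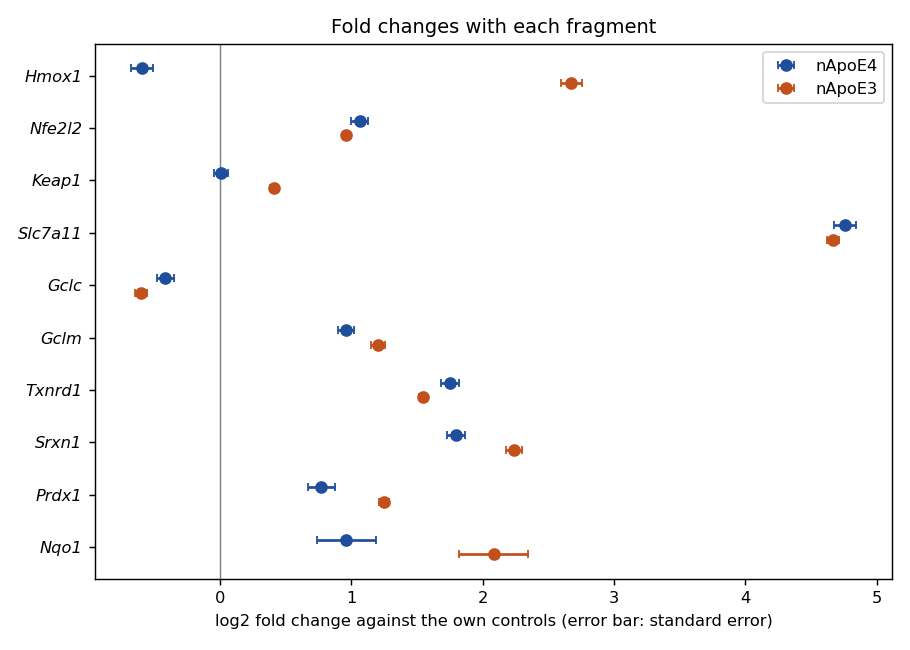
Log2 fold change of each gene against its own controls with nApoE4 (blue) and with nApoE3 (orange), with standard errors as bars. Hmox1 lies at -0.59 and 2.67 on opposite sides of 0, Gclc lies below 0 with both fragments at -0.42 and -0.60, and the pair of Slc7a11 values is at 4.76 and 4.67.

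Hmox1 was set among all 13750 genes tested in both experiments. Leaving Hmox1 out, 254 were called lower with nApoE4 and higher with nApoE3, and 247 were called the other way round. Only 2 genes had a log2 value at or below that of Hmox1 with nApoE4 and at or above it with nApoE3. They were Hmox1 and Ier3, an immediate early gene, at -0.69 and 3.52. The limits were the values for which Hmox1 was chosen, so this describes where it lay and is no test.

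**Figure D4:**
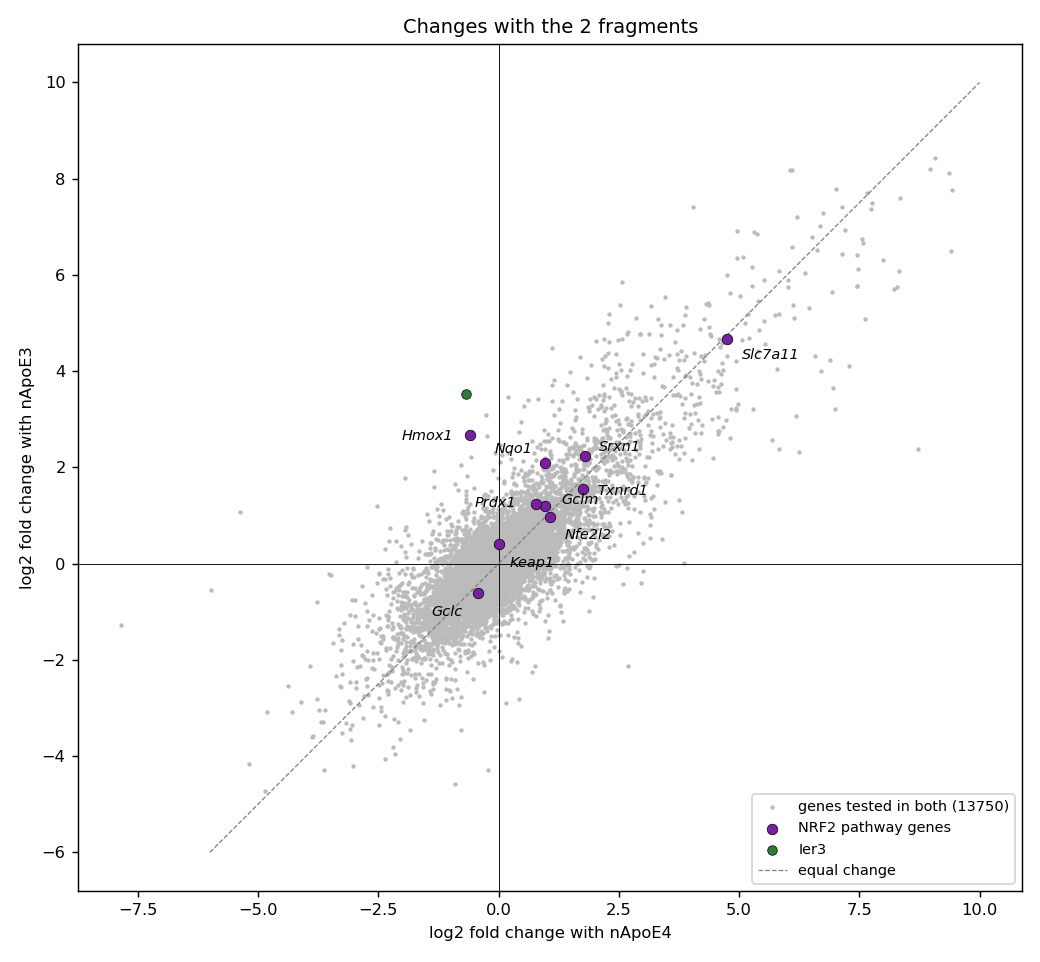
Log2 fold change with nApoE3 (vertical) against that with nApoE4 (horizontal) for the 13750 genes tested in both experiments, with the 10 pathway genes in purple and Ier3 in green. Hmox1 at -0.59 and 2.67 and Ier3 at -0.69 and 3.52 stand at the upper left of the cloud, and Slc7a11 lies near the line of equal change.

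The genes whose pattern was most like that of Hmox1 were ranked by Pearson's r over the 11 samples, on log2(CPM + 0.5) minus the mean of the own controls, among 8840 genes with a mean of at least 10 CPM. The correlation is a description, since the samples share controls, libraries and the 2 high nApoE3 samples. Ier3 and Serpinb6b had an r of 0.993, Map2k1, a kinase of the MAPK cascade, 0.990 and Atg13, an autophagy factor, 0.989. Dgat2, which makes triglycerides, had 0.987, as did Litaf and the zinc transporter Slc39a6. Hk3, a hexokinase, and the macrophage gene Mpeg1 had 0.986, and Nfkbid, an IκB protein, had 0.985. All 10 were also the top 10 with 1 CPM added in place of 0.5. Outside Ier3, their log2 values with nApoE4 were between -0.22 and -0.0745 and their log2 values with nApoE3 between 0.56 and 1.40.

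Among the pathway genes the closest were Keap1, with an r of 0.964 at rank 31, and Maff, a small MAF partner of NRF2, with 0.953 at rank 53. Nfe2l2 had an r of 0.258, Txnrd1 0.237, Slc7a11 0.302 and Bach1 0.265, and Gclc had -0.504.

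Other genes of the pathway were taken from 7 lists of 71 genes in all, chosen for their roles. With nApoE4, 28 of the 60 genes tested rose, 15 fell and 17 did not pass, beside 28.6% higher and 28.6% lower over all genes. With nApoE3, 39 of 62 rose, 15 fell and 8 did not pass, beside 33.1% and 34.6%. These shares over all genes are the background for the counts of each list that follow, and nothing is read from counts of so few genes. Their difference between fragments was called higher with nApoE4 for 6 of 62 genes, lower for 17 and not called for 39, beside 14.4% and 13.9% of all genes. Between the control groups, 19 of 60 were higher in the nApoE3 experiment and 25 lower, beside 34.4% and 34.9%. The count files listed Txnip, G6pdx, Gsta3 and Ugt1a6a at 0 in all 11 samples. The annotation release and the counting settings are not given, so a 0 in these files cannot be read as lack of expression.

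Among 11 regulators of NRF2, 8 rose and 1 fell with nApoE4 (median log2 0.32), and 8 rose and 2 fell with nApoE3 (median 0.27). Sqstm1, the autophagy receptor p62 that binds KEAP1, rose most with both, from 444 ± 53.9 to 2030 ± 71.1 CPM (SD, n = 3) with nApoE4 and from 487 ± 18.9 to 2170 ± 111 (n = 3 and 2) with nApoE3. This was a log2 fold change of 2.2 (SE 0.09, adjusted p = 5.36e-08 by edgeR) and 2.15 (SE 0.03, adjusted p = 8.1e-14). Bach1, the repressor of Hmox1, was the one regulator that fell with nApoE4, from 58.8 ± 5.18 to 43 ± 1.73 CPM (log2 -0.45, adjusted p = 0.000646). It fell less with nApoE3, where its log2 value was -0.12 (adjusted p = 0.00531), a difference of -0.34 (adjusted p = 0.0126 by edgeR) that was lost without the second nApoE3 sample (adjusted p = 0.0637). Btrc, a subunit of the ligase that can degrade NRF2 apart from KEAP1, rose with nApoE4 (log2 0.31, adjusted p = 0.00346) and fell slightly with nApoE3 (-0.13, adjusted p = 0.0121). The fall was not called with DESeq2 (adjusted p = 0.0572), nor without the first control or the first nApoE3 sample (0.0504 and 0.0506).

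The genes of the small MAF proteins, named here after their values were seen, moved unequally. Maff had 29.4, 32.8 and 29.8 CPM in the controls and 33.5, 32.4 and 32.6 with nApoE4 (log2 0.1, adjusted p = 0.177). It had 17.8, 18.6 and 19.2 CPM in the other controls and 59.9 and 58.2 with nApoE3, a rise of 1.67 on the log2 scale (adjusted p = 2.73e-12). The difference was -1.57 (SE 0.08, adjusted p = 2.78e-08 by edgeR). Mafk rose by 0.31 with nApoE4 (adjusted p = 0.000822) and by 1.06 with nApoE3 (adjusted p = 1.18e-11), a difference of -0.76 (adjusted p = 1.63e-06). Mafg rose by 0.65 and 0.56, and its difference was 0.08 (adjusted p = 0.381).

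Of 10 genes of heme and iron handling, 4 rose and 5 fell with nApoE4 (median log2 -0.2), and 5 rose and 4 fell with nApoE3 (median 0.09). The biliverdin reductases, which take the product of heme oxygenase further, went opposite ways. Blvrb rose with nApoE4 (log2 0.8, SE 0.11, adjusted p = 0.000218 by edgeR) and with nApoE3 (0.85, SE 0.03, adjusted p = 2.14e-10). Blvra fell with both, at -0.72 (SE 0.09, adjusted p = 6.38e-05) and -0.38 (SE 0.02, adjusted p = 3.66e-08). The difference between fragments was called for 5 of the 10, all lower with nApoE4, beside 28.3% of all genes called and 13.9% lower. These were the constitutive heme oxygenase gene Hmox2 at -0.33 (adjusted p = 0.0202), Blvra at -0.36 (adjusted p = 0.0203), the heme transporters Slc48a1 at -0.50 (adjusted p = 0.00235) and Flvcr1 at -0.35 (adjusted p = 0.00119), and the iron exporter Slc40a1 at -0.84 (adjusted p = 0.000304). The Blvra call was lost without either nApoE3 sample (adjusted p = 0.0879 and 0.0573) or without the second nApoE4 sample (0.0544). The Hmox2 call was lost without the first nApoE3 or the first nApoE4 sample (0.102 and 0.0516). Hmox2 had lower levels with both fragments, unlike Hmox1, at -0.58 (adjusted p = 0.000168) and -0.26 (adjusted p = 4.23e-05). Flvcr1 is listed in the files under its older symbol Mfsd7b.

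Of the 14 genes of glutathione use and synthesis, 12 were tested with nApoE4, of which 6 rose and 2 fell (median log2 0.2), and 13 with nApoE3, of which 7 rose and 3 fell (median 0.29). The largest rise with nApoE4 was that of Chac1, which degrades glutathione, from 1.86 ± 0.114 to 6.66 ± 0.254 CPM (SD, n = 3, log2 1.84, SE 0.11, adjusted p = 5.68e-07 by edgeR). With nApoE3 Chac1 was at 1.73 ± 0.308 CPM against 1.41 ± 0.117 (log2 0.29, adjusted p = 0.163), and the difference of 1.54 was called (adjusted p = 5.48e-05). The largest rise with nApoE3 was that of Gsr, glutathione reductase (log2 1.33, SE 0.03, adjusted p = 5.73e-13), which also rose with nApoE4 (0.98, adjusted p = 7.86e-07). Gpx1, a glutathione peroxidase, fell with nApoE4 at -0.32 (adjusted p = 0.0258), which no longer passed without nApoE4 replicate 2 or replicate 3 (adjusted p = 0.0775 and 0.0851). The largest fall with nApoE3, that of Gstp1 (log2 -2.13, SE 0.77, adjusted p = 0.0276), rested on 29, 10 and 6 counts against 5 and 1. Gstp1 passed the filter on low counts only through its controls, so nothing is read from this call, 1 of the 3 falls. It was lost with all 11 samples in one fit (adjusted p = 0.198), and the value was -1.43 without the second nApoE3 sample.

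Of 8 other thioredoxin and peroxiredoxin genes tested with nApoE4, 2 rose and 3 fell (median log2 -0.06), and of 9 tested with nApoE3, 6 rose and 1 fell (median 0.08). Prdx5 rose by 0.75 on the log2 scale with nApoE4 (SE 0.1, adjusted p = 0.000154 by edgeR) and by 0.67 with nApoE3 (adjusted p = 1.29e-08). The remaining nApoE4 calls were small, at 0.17 for Txnrd3 (adjusted p = 0.0476), -0.31 for Prdx2 (adjusted p = 0.0217), -0.32 for Prdx6 (adjusted p = 0.00789) and -0.22 for Txn2 (adjusted p = 0.035). Leaving out 1 sample ended the call of Txnrd3 for 5 of the 6 samples, of Txn2 for 4 and of Prdx2 for 2, nApoE4 replicates 2 and 3. With nApoE3 the single fall was that of Prdx2 (-0.15, adjusted p = 0.000209), a call that was lost with all 11 samples in one fit (adjusted p = 0.201). The largest value, 1.85 for the mitochondrial reductase Txnrd2 (SE 0.5, adjusted p = 0.006 by edgeR), rested on 16 and 11 counts against 5, 5 and 2. Txnrd2 passed the filter on low counts only through the nApoE3 samples, so nothing is read from this call, 1 of the 6 rises. It was lost with all 11 samples in one fit (adjusted p = 0.389), and the value was 1.59 without the first nApoE3 sample. Among the nApoE4 samples Txnrd2 ran from 0.0481 to 2.75 CPM.

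Of 5 tested genes that supply NADPH, 2 rose and none fell with nApoE4 (median log2 -0.07), and 3 rose and 1 fell with nApoE3 (median 0.08). Me1 and Pgd rose with both fragments, by 0.62 and 0.47 with nApoE4 (adjusted p = 1.24e-05 and 0.00204 by edgeR) and by 0.53 and 0.49 with nApoE3 (adjusted p = 8.81e-09 and 7.72e-06). Idh1 fell with nApoE3 (log2 -0.52, adjusted p = 1.09e-08), and Taldo1 rose by 0.08 (adjusted p = 0.00433), which did not pass with all 11 samples in one fit (adjusted p = 0.372). Of the 10 xenobiotic targets 5 were tested, of which 1 rose and 3 fell with nApoE4 (median log2 -0.29) and 3 rose and 2 fell with nApoE3 (median 0.52). Abcc4, an exporter, rose with both fragments (0.42, adjusted p = 0.00109, and 0.52, adjusted p = 3.31e-09). Ephx1, an epoxide hydrolase, fell with both (-0.73, adjusted p = 8.61e-05, and -0.31, adjusted p = 6.25e-06), as did the carbonyl reductase Cbr1 (-0.29, adjusted p = 0.0407, and -0.54, adjusted p = 1.63e-06), although the Cbr1 call with nApoE4 was lost without any 1 sample but control replicate 3 (adjusted p 0.0603 to 0.11), and its value was -0.16 without control replicate 2. Akr1b8, an aldo-keto reductase, rose with nApoE3 (0.55, adjusted p = 0.000294).

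Osgin1 was called in the directions that Hmox1 showed. It fell with nApoE4 from 26.9 ± 1.89 to 16.8 ± 0.527 CPM (SD, n = 3, log2 -0.67, SE 0.07, adjusted p = 3.53e-05 by edgeR) and rose with nApoE3 from 7.39 ± 0.496 to 11.2 ± 1.16 CPM (n = 3 and 2, log2 0.59, SE 0.08, adjusted p = 3.24e-05). The difference was -1.28 (SE 0.11, adjusted p = 3.4e-06). Its r with Hmox1 over the samples was 0.854. Slc40a1 and Prdx6 were also called in these directions, with small rises with nApoE3. By edgeR, Slc40a1 had -0.66 with nApoE4 (adjusted p = 0.000107) and 0.17 with nApoE3 (adjusted p = 0.0376). Prdx6 had -0.32 (adjusted p = 0.00789) and 0.08 (adjusted p = 0.0212).

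Of 9 tested genes for superoxide sources and removal, 5 rose and 1 fell with nApoE4 (median log2 0.44), and 7 rose and 2 fell with nApoE3 (median 0.67). Cybb, the catalytic subunit of the phagocyte NADPH oxidase, rose from 113 ± 3.03 to 971 ± 6.59 CPM (SD, n = 3) with nApoE4 and from 130 ± 6.01 to 1180 ± 14.8 (n = 3 and 2) with nApoE3. The log2 fold changes were 3.11 (SE 0.06, adjusted p = 6.81e-10 by edgeR) and 3.17 (SE 0.03, adjusted p = 2.05e-15), with a difference of -0.07 (adjusted p = 0.48). Sod2, the mitochondrial superoxide dismutase, rose with both, at 2.03 (adjusted p = 2.21e-08) and 1.96 (adjusted p = 3.14e-15). The cytosolic dismutase Sod1 fell with nApoE3 (-0.13, adjusted p = 0.00302), and this call was lost with all 11 samples in one fit (adjusted p = 0.245).

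**Figure D5:**
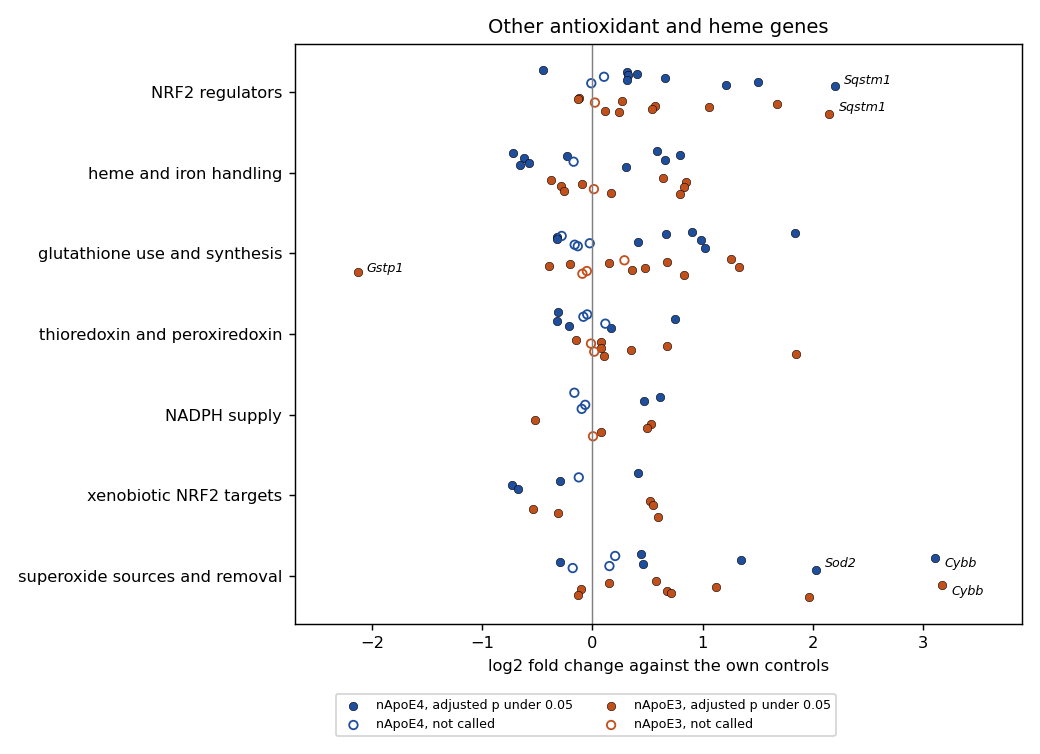
Log2 fold change of the tested genes of the 7 lists against their own controls, with nApoE4 in blue and nApoE3 in orange. Filled points passed an adjusted p of 0.05 and open points did not. Cybb lies at 3.11 and 3.17 and Sqstm1 at 2.2 and 2.15, and the heme and iron genes lie on both sides of 0.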

How the data were processed

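BV2 cells treated with nApoE4 (n = 3) or nApoE3 (n = 2) and the controls of each (n = 3) were measured by RNA-seq. The authors removed adapters (Trim Galore 0.5.0), assessed quality (FastQC 0.11.8), mapped the reads to GRCm38.p6 with HISAT2 2.1.0 and deposited raw HTSeq 0.11.0 counts per gene, without normalization. The annotation release, strand setting and overlap mode are not given in the sources used here. Of the tallied reads, unaligned ones included, 76.0 to 77.7% were counted on genes, 11.7 to 13.2% mapped to several places and 3.24 to 3.56% were ambiguous. These tallies were left out of library sizes.

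Counts were analysed in R 4.3.3 with edgeR 4.0.16 over all genes: filterByExpr, TMM, the quasi-likelihood F test, Benjamini-Hochberg adjustment and a threshold of 0.05. The treated samples of an experiment were set against that experiment's controls, the difference was tested over all 11 samples with 4 group means, and the control groups were compared with each other. Standard errors are approximate, taken from the log2 value and F. CPM used TMM library sizes, and RPKM used exon lengths of GENCODE M21. At these depths 3 counts equal at most 0.0755 CPM in the nApoE4 experiment. Counting error alone limits such values.

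The 10 genes, the lists and the tests were chosen with earlier results of these data known. Named genes were the 10 genes, the largest rise and fall past the threshold in each list and treatment (all where 5 or fewer), and the 10 genes most like Hmox1. A result of 1 gene under this rule is not reported here. Others named by choice after their values were seen were Mafk, Maff, Mafg, Hmox2, Slc48a1, Flvcr1, Slc40a1, Sod2, the genes listed at 0 and, in the list of differences, those past its threshold. Same-numbered samples did not deviate together (correlations -0.338 to -0.00203), so the replicate numbers were not taken as pairs. The code was tested on simulated data. Alternatives were DESeq2 1.42.0 (Wald test), its size factors in edgeR, other filters on low counts, all 11 samples in one fit, the replicate number as a block and leaving out each sample.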

Additional observations from a re-analysis of the deposited data

Results flagged for a closer look

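The results given here are those for which the change with nApoE4 and the change with nApoE3 differed by edgeR's test of the difference over 11 samples, with Benjamini-Hochberg adjustment over all genes. Values are the change with nApoE4 minus the change with nApoE3 on the log2 scale. For Hmox1, at -3.28, all 3 nApoE4 samples were below and both nApoE3 samples above their controls, and the difference was not tested. The other pathway genes were Nqo1 at -1.13, Srxn1 at -0.45, Keap1 at -0.42 and Prdx1 at -0.49.

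Among the regulators these were Bach1 at -0.34, Mafk at -0.76, Maff at -1.57, Nfe2l1 at 0.94, Btrc at 0.43 and the stress sensor Sesn2 at 0.96. In heme and iron handling they were Hmox2 at -0.33, Blvra at -0.36, Slc48a1 at -0.50, Flvcr1 at -0.35 and Slc40a1 at -0.84. In glutathione use they were Gsr at -0.36, Chac1 at 1.54, Glrx at -0.44, Gstm1 at -0.39 and the exporter Abcc1 at -0.37. The remaining genes were Prdx6 at -0.41, Idh1 at 0.34, Ephx1 at -0.43, Akr1b8 at -0.69, Osgin1 at -1.28, Ncf1 at 0.22 and Rac2 at -0.57. Without the second nApoE3 sample the calls of Nqo1, Prdx1, Bach1, Blvra, Glrx, Gstm1, Abcc1, Akr1b8 and Ncf1 were lost (adjusted p 0.0541 to 0.221), and without the first those of Hmox2, Blvra, Glrx, Idh1 and Ephx1 (0.0638 to 0.112). Glrx and Ncf1 kept their call in only 7 and 6 of 16 alternatives. Fragment and experiment cannot be told apart in any of these.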

How the results depend on the processing

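The counts of pathway genes that rose or fell were 7 and 1 with nApoE4 and 8 and 1 with nApoE3 under every alternative run. The Keap1 value with nApoE4, near 0, changed sign with genes of at least 1 count (-0.0168), with all 11 samples in one fit (-0.000314), and with single samples left out, -0.0135 to 0.0221. The Slc7a11 difference between fragments was -0.00908 to 0.168 with single samples left out, the lowest without the first nApoE3 sample. In the difference between fragments, DESeq2 called 1 gene higher with nApoE4 (Txnrd1) against none, and 0 to 1 with single samples left out. The genes called lower were 4, and 2 to 5 with single samples left out, 2 without the second nApoE3 sample. The replicate number as a block, though the numbers do not pair the samples, left 2 (Nqo1 and Prdx1 were lost) and 11 of the 17 list genes called lower. With single samples left out these were 11 to 22, with 11 without the second nApoE3 sample. The list genes that fell with nApoE3 were 7 of 15 with all 11 samples in one fit. Between the control groups, 1 to 2 pathway genes were lower, Hmox1 counted among them, with Nqo1 added without the second control of the nApoE4 experiment. The causes were not tested. The median of all genes lay between -0.0141 and 0.109 in the alternatives, the highest value between the control groups with genes of at least 1 count. A group of 2 nApoE3 samples limits every nApoE3 value.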
